A study of Rattus norvegicus with 16 samples.

Results

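The respiratory chain of the inner mitochondrial membrane was examined gene by gene in cultured aortic smooth muscle cells after knockdown of Nat10. The genes were taken by name: protein-coding rows whose symbol begins with Mt-, Ndufa, Ndufb, Ndufc, Ndufs, Ndufv, Uqcr, Cox4 to Cox8 or Atp5, or is one of the Sdh subunits a to d, with a mean of at least 1 FPKM over the 6 input libraries. FPKM counts fragments for each kilobase of a gene after scaling for library size. Of 110 protein-coding rows with such names, 104 reached that mean, out of 13450 genes that did so in the whole table of 32883. They were 13 mitochondrially encoded genes and 91 nuclear genes. Among the rest, Atp5pb averaged 0.76 FPKM, Cox8c averaged 0.037 FPKM, and Cox7a1, Cox7b2, Cox6c-ps1 and a second Ndufa10l1 row were listed at 0 in every library. Ndufs6 was named only for a processed pseudogene and Cox7a2 did not appear as a symbol, so neither is described.

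The cells were primary vascular smooth muscle cells from rat aorta, labelled wild type and grown in medium with 20% fetal bovine serum. The knockdown group (3 libraries) had been infected for 48 h with an adenovirus carrying a Nat10 short hairpin RNA, and the control group (3 libraries) a control adenovirus. The same design gave 3 and 3 libraries of fragments of 100 to 200 nt pulled down by their N4-acetylcytidine (ac4C), the modified base that the NAT10 enzyme writes on RNA. RNA bound to NAT10 itself (NAT10 RIP) was sequenced from 3 libraries of cells labelled as untreated. All cells of the first 2 assays carried a virus, so no uninfected cells enter the comparison. The replicates are called biological repeats without a statement that they come from separate animals, and p-values here reflect only how far these samples scatter, which could be technical.

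The respiratory chain passes electrons from NADH and succinate to oxygen through complexes I to IV, and complex V, the ATP synthase, uses the resulting proton gradient to make ATP. Its core is built from proteins of both genomes: the mitochondrial genome encodes a small set of hydrophobic subunits, and the nucleus encodes all others and every protein that transcribes, processes and translates the mitochondrial RNAs. Mitochondrial mRNAs are cut from long transcripts of the whole circular genome, so their levels do not depend on a promoter for each gene. In artery wall cells the chain also produces reactive oxygen species, and some subunits exist as paired isoforms that are chosen by tissue or oxygen.

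The promoters of 4 nuclear members are printed because they hold the motifs of factors known to drive this gene set: nuclear respiratory factor 1 (NRF1), YY1 and the estrogen-related receptor alpha (ESRRA). They are Uqcrc1 (a core protein of complex III, chr8:118467973-118468272, plus strand), Ndufa6 (an accessory subunit of complex I, chr7:115750268-115750567, minus strand), Sdhd (a membrane anchor of complex II, chr8:59850592-59850891, minus strand) and Ndufa4l2 (chr7:65241919-65242218, plus strand). The sequences are from RefSeq on build GRCr8, run 5′ to 3′ from 250 bases before to 50 bases after the first-listed start of the gene, and carry matches to the 3 motifs in capitals.
Uqcrc1: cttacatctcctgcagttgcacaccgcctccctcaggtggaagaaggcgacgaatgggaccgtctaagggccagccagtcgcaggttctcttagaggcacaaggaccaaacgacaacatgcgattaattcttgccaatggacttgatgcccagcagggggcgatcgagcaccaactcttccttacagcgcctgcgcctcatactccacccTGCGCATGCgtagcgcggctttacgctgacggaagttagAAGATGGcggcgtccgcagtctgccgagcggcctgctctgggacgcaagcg
Ndufa6: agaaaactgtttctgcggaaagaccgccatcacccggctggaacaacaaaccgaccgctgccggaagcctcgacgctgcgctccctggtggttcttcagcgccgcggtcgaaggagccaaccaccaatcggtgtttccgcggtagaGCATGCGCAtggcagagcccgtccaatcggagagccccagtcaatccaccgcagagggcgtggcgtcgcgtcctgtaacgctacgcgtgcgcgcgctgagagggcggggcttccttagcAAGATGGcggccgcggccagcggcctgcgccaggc
Sdhd: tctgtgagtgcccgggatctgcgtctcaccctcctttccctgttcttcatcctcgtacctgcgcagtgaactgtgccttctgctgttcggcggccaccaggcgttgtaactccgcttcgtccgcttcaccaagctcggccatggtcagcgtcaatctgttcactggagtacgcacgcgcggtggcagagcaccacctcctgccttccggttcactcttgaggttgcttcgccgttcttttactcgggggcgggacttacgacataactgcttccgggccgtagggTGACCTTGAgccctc
Ndufa4l2: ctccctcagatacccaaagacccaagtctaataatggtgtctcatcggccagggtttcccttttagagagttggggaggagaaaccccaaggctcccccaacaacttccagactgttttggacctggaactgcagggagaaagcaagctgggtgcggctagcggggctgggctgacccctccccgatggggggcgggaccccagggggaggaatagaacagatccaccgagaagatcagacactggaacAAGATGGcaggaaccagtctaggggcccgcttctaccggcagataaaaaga
The capitals in Uqcrc1 and Ndufa6 are 1 NRF1 match and, after it, 1 YY1 match each. Sdhd carries the ESRRA match on the strand opposite the gene, and Ndufa4l2 the YY1 match alone.

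The 6 input libraries held 6417941 to 7468528 fragments in knockdown and 8171176 to 12065991 fragments in control cells, recovered from the FPKM values. Nat10 stood at 4.38, 3.68 and 4.58 FPKM in knockdown and at 7.69, 9.22 and 9.95 FPKM in control libraries, apart in the sense that every knockdown value lay on one side of every control value, with an adjusted p of 0.227 (limma). In that fit 0 of 13450 genes passed an adjusted p of 0.05 in either direction; 744 were higher and 935 lower with an unadjusted p under 0.05. The smooth muscle label was checked against 9 markers, of which 8 averaged at least 1 FPKM, and their summed level was 774.5 to 3509 FPKM in knockdown and 4755 to 6452 FPKM in control libraries. The summed level of 5 adventitial fibroblast markers was 190.5 to 262 FPKM in knockdown and 293 to 315 FPKM in control libraries. Endothelial markers summed to under 1 FPKM in all 6. The 5 leukocyte markers summed to 6.69 to 26.4 FPKM in knockdown and 7.47 to 19.2 FPKM in control libraries, with Cd74 highest and Cd3e at 0. Adipocyte markers, with Cidea highest, summed to 11.3 to 15.9 FPKM in knockdown and 11.4 to 15.6 FPKM in control libraries. Schwann cell markers summed to 0.65 to 2.81 FPKM in knockdown and 1.07 to 4.69 FPKM in control libraries. The smooth muscle and adventitial fibroblast sums were lower in every knockdown library, and their part in the results below was not tested. In bulk RNA, fewer cells of a type and less RNA per cell cannot be told apart. Knockdown library 2 stood farthest from the others on the first principal component of all genes.

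The 13 mitochondrial mRNAs showed no difference between the groups beyond the spread between libraries, and most of that spread lay within the knockdown group. Their summed level was 47704, 33822 and 75362 FPKM in the knockdown libraries and 56092, 48172 and 46567 FPKM in the control libraries. The knockdown libraries thus held both the lowest and the highest sum, on either side of all controls. The log2 difference of knockdown minus control was -0.02 (exact permutation test, two-sided, p = 0.9; the smallest p possible with 3 against 3 is 0.1). As a share of all fragments, mitochondrial mRNA made up 5.79%, 4.75% and 7.43% in knockdown and 5.84%, 4.99% and 4.82% in control libraries.

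Gene by gene, 0 of the 13 passed the threshold and 0 had an unadjusted p under 0.05, against 5.53% of all genes for higher and 6.95% for lower values. The log2 changes ran between -0.40 and 0.16 with a median of -0.15, 3 positive and 10 negative, and the lowest adjusted p was 0.835 (limma). The sign of this median turned with the weight given to single libraries. Without knockdown library 2 all 13 changes were positive with a median of 0.35, and without knockdown library 3 all 13 were negative with a median of -0.56. With weights for library quality 10 were positive and 3 negative, with a median of 0.10. Knockdown library 3 held the highest value of all 6 libraries for 13 of 13 genes, and knockdown library 2 the lowest for 12 of 13.

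**Figure D1:**
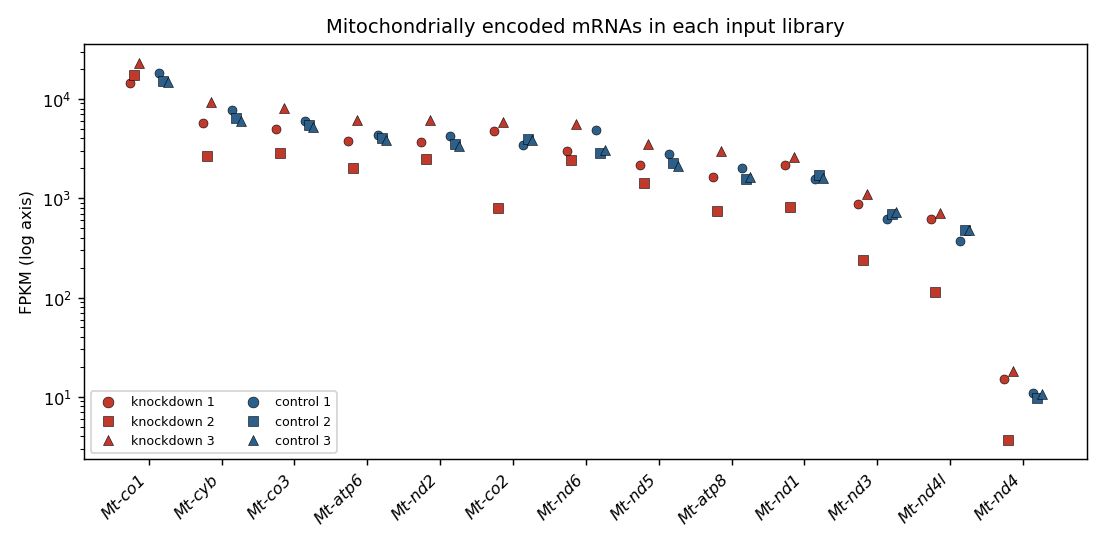
Level of each mitochondrially encoded mRNA (FPKM, log axis) in the 3 knockdown libraries (red, left) and 3 control libraries (blue, right), 1 point per library. The control points lie close together, while knockdown library 2 (red square) lies lowest for every gene except Mt-co1 and knockdown library 3 (red triangle) lies highest for all 13.

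Complex I takes 7 subunits from the mitochondrial genome, which form its proton-pumping membrane arm. Mt-nd1 was listed at 2165, 817 and 2628 FPKM in knockdown and 1567, 1704 and 1586 FPKM in control libraries. Mt-nd2 stood at 3651, 2468 and 6156 FPKM in knockdown and 4185, 3534 and 3374 FPKM in control libraries, and Mt-nd5 at 2155, 1413 and 3504 FPKM in knockdown and 2781, 2247 and 2116 FPKM in control libraries. For all 3 the groups overlapped, with library 2 low and library 3 high among the knockdown values. Mt-nd3 stood at 872, 237 and 1112 FPKM in knockdown and 623, 688 and 725 FPKM in control libraries, and Mt-nd4l at 612, 114 and 702 FPKM in knockdown and 374, 476 and 479 FPKM in control libraries. In both, as in Mt-nd1, Mt-nd4 and Mt-co2, knockdown libraries 1 and 3 lay above all controls and library 2 below them. Mt-nd6, the only mRNA encoded on the strand opposite to the other 12, had 2982, 2402 and 5654 FPKM in knockdown and 4863, 2868 and 3031 FPKM in control libraries, where control library 1 joined knockdown library 3 at the high end. Mt-nd6 overlaps the end of Mt-nd5 on the opposite strand. The library kit marks strand, but use of strand in counting was not given in the sources used here, so reads from their shared end may not be told apart.

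Mt-nd4 was out of scale with the rest: it was listed at 14.97, 3.64 and 18.4 FPKM in knockdown and 10.8, 9.75 and 10.7 FPKM in control libraries, on 41 to 175 fragments per library. Mt-nd5, which lies downstream of it on the same strand, was listed at 144, 388 and 190 times the level of Mt-nd4 in knockdown and 256, 230 and 198 times in control libraries. Mt-nd4 overlaps Mt-nd4l in the genome, and the handling of fragments on shared or repeated sequence was not given in the sources used here. As for every other message but Mt-co1, knockdown library 2 was lowest, and as for all of them, knockdown library 3 was highest.

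In complex III, Mt-cyb (cytochrome b, the subunit that holds the quinone sites) stood at 5690, 2680 and 9376 FPKM in knockdown and 7650, 6388 and 5974 FPKM in control libraries. In complex IV, whose catalytic centre is built by the mitochondrial subunits, Mt-co1 was the most abundant member in all 6 libraries, at 14443, 17289 and 23068 FPKM in knockdown and 18354, 15279 and 14674 FPKM in control libraries. Mt-co1 had the largest positive change of the 13 (log2 0.16, SE 0.64, adjusted p = 0.933), well within its error. Mt-co2 stood at 4747, 802 and 5905 FPKM in knockdown and 3415, 3970 and 3825 FPKM in control libraries, and Mt-co3 at 4980, 2849 and 8144 FPKM in knockdown and 5961, 5417 and 5274 FPKM in control libraries. Both overlapped between groups. In complex V, Mt-atp6, a part of the proton channel, had 3774, 2012 and 6098 FPKM in knockdown and 4307, 4025 and 3871 FPKM in control libraries. Mt-atp8, which shares a transcript with Mt-atp6, had 1619, 737 and 2997 FPKM in knockdown and 2002, 1567 and 1628 FPKM in control libraries. The ratio of Mt-atp6 to Mt-atp8 was 2.33, 2.73 and 2.04 in knockdown and 2.15, 2.57 and 2.38 in control libraries, a narrow and overlapping range.

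Knockdown library 2 differed in composition as well as in level. The ratio of Mt-co1 to Mt-co2 was 21.6 there, against 3.04 and 3.91 in knockdown libraries 1 and 3 and 5.38, 3.85 and 3.84 in control libraries. Mt-co1 made up 51.1% of the summed mitochondrial FPKM in knockdown library 2, against 30.3% and 30.6% in the other knockdown libraries and 32.7%, 31.7% and 31.5% in control libraries. The shift was seen in 1 of 3 knockdown libraries. The ratio of Mt-co1 to Mt-cyb was 6.45 in that library and between 2.39 and 2.54 in the other 5.

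The 91 nuclear members were 36 subunits of complex I with 8 factors named Ndufaf that assemble it, 4 of complex II, 9 of complex III, 18 of complex IV and 16 of complex V. Ndufa4 and its paralogue Ndufa4l2 are counted with complex IV, where the Ndufa4 protein resides. None of the 91 passed the threshold. At an unadjusted p under 0.05 there were 0 higher and 8 lower, which is 8.79% of the 91 beside 6.95% of all genes. Changes were positive for 25 and negative for 66, with a median log2 of -0.09 against -0.01 for all genes tested. The split depended on the scaling between libraries. It was 34 to 57 with equal library sums (median -0.07, all genes 0.01), 37 to 54 with equal sums over nuclear genes (median -0.04, all genes 0.04) and 38 to 53 with quantile normalization (median -0.05, all genes 0.01). The groups were apart, with every knockdown value below every control, for 13 of the 91 (14.3%), against 10.9% of all genes; they were apart in the other direction for 3, against 9.63% of all genes. The balance of signs rested on knockdown library 3: without it 46 changes were positive and 45 negative.

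The summed level of the nuclear members was 4537, 4921 and 3986 FPKM in knockdown and 4707, 4640 and 4728 FPKM in control libraries. The control sums lay within a few percent of one another, and the knockdown sums lay on both sides of them. The log2 difference of the sums was -0.07 (exact permutation test, two-sided, p = 0.7). With the median log2 level of the members in place of the sum, the difference was -0.21, and every knockdown library lay below every control (p = 0.1 in the same exact test, the smallest possible). Knockdown library 3, the one with the highest mitochondrial sum, had the lowest nuclear sum, and held the lowest value of the 6 libraries for 39 of the 91 genes. Among the 43 nuclear members shorter than 700 nt it held the lowest value for 25. In that library the median deviation from a gene's mean over the libraries was -0.24 for these short genes and -0.11 for the 48 longer ones. Over all protein-coding genes tested under 700 nt it was -0.06.

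**Figure D2:**
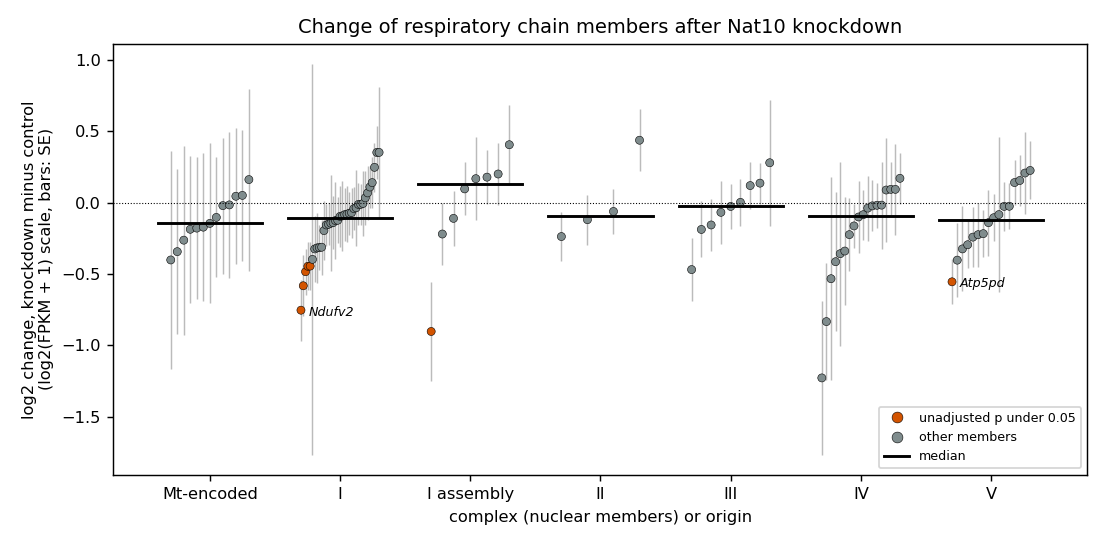
Log2 change of the members, knockdown minus control, on the log2(FPKM + 1) scale, with its SE, arranged by complex; black lines are medians and orange points have an unadjusted p under 0.05. Most of the orange points lie in complex I, with Ndufv2 at -0.75, and no point passed the adjusted threshold.

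Complex I held 6 of the 8 nuclear members that were lower with an unadjusted p under 0.05, and 9 of the 13 that were apart and lower. Of its 36 nuclear subunits these 6 make 16.7%, beside 6.95% of all genes, and these 9 make 25.0%, beside 10.9%. Negative changes were spread more evenly: complex I held 29 of the 66, and its median log2 was -0.11 against -0.09 for all nuclear members.

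Ndufv2, an iron-sulphur subunit of the NADH-oxidising module, stood at 19.5, 32.4 and 29.4 FPKM in knockdown and 48.3, 44.3 and 43.5 FPKM in control libraries. The groups were apart, the log2 change was -0.75 (SE 0.21), and the adjusted p was 0.299 (limma). With library quality weights it was -0.94 with an adjusted p of 0.0452, past the threshold; in that fit 2 nuclear members passed, both lower, and 0.892% of all genes passed as higher and 1.6% as lower. Over 15 alternative fits its log2 change stayed between -0.94 and -0.54, with adjusted p between 0.0452 and 0.797. Ndufv3, a small subunit of the same module, stood at 17.9, 28.5 and 19.6 FPKM in knockdown and 35.1, 28.6 and 35.1 FPKM in control libraries, with knockdown library 2 just under the lowest control. A second row with the symbol Ndufv3 ranged between 1.77 and 8.99 FPKM with overlapping groups, and reads may be shared between the copies. Ndufs8, a core iron-sulphur subunit, stood at 21.7, 15.9 and 18.8 FPKM in knockdown and 26.7, 24.5 and 26.1 FPKM in control libraries, also apart.

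The iron-sulphur and NADH-binding subunits were not all apart between the groups. Ndufs1, the largest iron-sulphur subunit, was apart by little, with 28.9, 30.7 and 30.6 FPKM in knockdown and 36.9, 32.2 and 31.8 FPKM in control libraries. Ndufv1, which binds NADH, had 28.4, 31.8 and 32.9 FPKM in knockdown and 30.0, 26.5 and 29.6 FPKM in control libraries, and Ndufs7 and Ndufs3 overlapped too, with log2 changes of -0.04 and 0.03. Ndufv1 and Ndufv2, which sit side by side in the enzyme, had log2 changes of 0.11 (SE 0.15) and -0.75 (SE 0.21). The Ndufv1 change lay within its error, and the 2 genes were not tested against each other.

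Among the accessory subunits, Ndufa8 had 23.8, 20.5 and 18.6 FPKM in knockdown and 28.7, 28.0 and 32.2 FPKM in control libraries (log2 -0.48, adjusted p = 0.336, limma). Ndufa13, known also as GRIM-19, had 29.8, 29.8 and 38.4 FPKM in knockdown and 43.1, 42.3 and 48.6 FPKM in control libraries (log2 -0.45). Both were lower in all 3 knockdown libraries than in any control, with an unadjusted p under 0.05. The most abundant accessory subunits overlapped between groups. Ndufa5 was at 70.1, 104 and 55.0 FPKM in knockdown and 85.3, 78.3 and 72.9 FPKM in control libraries, and Ndufb10 at 65.6, 84.4 and 50.3 FPKM in knockdown and 90.7, 59.8 and 55.4 FPKM in control libraries. In the other direction, Ndufa10l1 was at 24.2, 35.9 and 27.3 FPKM in knockdown and 22.6, 22.3 and 22.1 FPKM in control libraries, the only complex I subunit of 36 with all knockdown values above the controls (log2 0.35, adjusted p = 0.482, limma). Ndufab1, the mitochondrial acyl carrier protein, had a log2 change of 0.25 with overlapping groups. Ndufa1 swung between 0 and 34.6 FPKM within the knockdown group and between 2.04 and 23.4 FPKM within the control group on 0 to 54 fragments, too few to compare.

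Of the 8 assembly factors with the Ndufaf prefix, 5 had positive and 3 negative changes. Ndufaf6 was the one apart: 2.25, 6.06 and 5.97 FPKM in knockdown and 11.7, 8.67 and 7.51 FPKM in control libraries (log2 -0.90, unadjusted p 0.0347, adjusted p = 0.373, limma). Ndufaf1 was at 6.95, 4.05 and 7.83 FPKM in knockdown and 3.37, 4.63 and 5.19 FPKM in control libraries, with library 2 among the controls. In the wider list of 17 complex I assembly factors, which includes the Ndufaf genes, 3 (17.6%) were lower with an unadjusted p under 0.05, beside 6.95% of all genes, and 4 (23.5%) were apart and lower, beside 10.9%. Ecsit, which joins the membrane arm assembly complex, had 4.96, 5.51 and 6.43 FPKM in knockdown and 10.5, 10.7 and 11.02 FPKM in control libraries (log2 -0.83, SE 0.17, adjusted p = 0.231, limma), the groups well apart. Acad9, a partner in that assembly complex, was at 8.52, 9.67 and 7.29 FPKM in knockdown and 7.13, 6.82 and 7.02 FPKM in control libraries.

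Complex II, the succinate dehydrogenase of the citric acid cycle, is encoded wholly in the nucleus. Its catalytic subunits overlapped between groups: Sdha was at 33.1, 45.4 and 34.7 FPKM in knockdown and 43.0, 38.9 and 40.3 FPKM in control libraries, and Sdhb at 43.5, 54.6 and 42.6 FPKM in knockdown and 60.7, 54.8 and 50.3 FPKM in control libraries. Sdhd, the small membrane anchor, was at 26.0, 34.9 and 20.2 FPKM in knockdown and 17.95, 19.8 and 20.0 FPKM in control libraries. The groups were apart, though knockdown library 3 exceeded the highest control by less than 1 FPKM. Its log2 change of 0.44 (SE 0.22, adjusted p = 0.46, limma) was the largest positive one among the 91, and the other anchor, Sdhc, stood at -0.06.

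The 9 complex III genes gave a median log2 change of -0.03, the smallest in size of the 5 complexes. Uqcrc1, a core protein, was at 55.6, 54.1 and 57.9 FPKM in knockdown and 47.3, 53.7 and 51.3 FPKM in control libraries, apart by less than 1 FPKM. Uqcr11 was at 75.0, 74.7 and 63.1 FPKM in knockdown and 58.7, 65.5 and 71.5 FPKM in control libraries. Uqcrh, the hinge protein that helps cytochrome c dock, had 90.7, 110 and 31.5 FPKM in knockdown and 58.6, 49.4 and 60.9 FPKM in control libraries, so the knockdown values surrounded the controls. Uqcrb is carried by a pair of gene IDs. The ID on chromosome 1 was at 18.7, 12.6 and 19.8 FPKM in knockdown and 24.0, 27.2 and 20.1 FPKM in control libraries, apart but narrowly (log2 -0.47). The ID on chromosome 7 overlapped (log2 -0.19). The sequences of the pair were not compared, and reads may be shared between them, which leaves both uncertain.

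In complex IV no gene of 18 was apart between the groups in either direction, and the median log2 change was -0.09. The 2 most abundant nuclear members of complex IV overlapped: Cox6a1 was at 270, 300 and 246 FPKM in knockdown and 252, 240 and 230 FPKM in control libraries, and Cox4i1 at 167, 195 and 189 FPKM in knockdown and 209, 174 and 203 FPKM in control libraries. The largest changes fell on the alternative isoforms. Ndufa4l2, a paralogue of Ndufa4 that is known to be induced by low oxygen, was at 15.1, 10.8 and 43.5 FPKM in knockdown and 27.3, 63.9 and 57.9 FPKM in control libraries. Knockdown libraries 1 and 2 lay below all controls, and library 3 lay between control library 1 and the others (log2 -1.23, SE 0.54, adjusted p = 0.413, limma).

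Cox4i2, the low-oxygen and lung isoform of Cox4i1, likewise had knockdown libraries 1 and 2 below all controls and library 3 among them, with 6.99, 3.37 and 13.5 FPKM in knockdown and 11.8, 14.9 and 13.0 FPKM in control libraries (log2 -0.83, SE 0.41, adjusted p = 0.458, limma). The ratio of Ndufa4l2 to Ndufa4 was 0.167, 0.114 and 0.986 in knockdown and 0.339, 0.877 and 0.861 in control libraries, so the paralogue came close to Ndufa4 in 1 knockdown and 2 control libraries. The ratio of Cox4i2 to Cox4i1 was 0.0419, 0.0173 and 0.0711 in knockdown and 0.0564, 0.0859 and 0.0643 in control libraries. In both pairs knockdown library 2 had the lowest ratio, and the groups overlapped through library 3. The striated-muscle isoforms stayed low: Cox6a2 ranged between 0.61 and 3.87 FPKM in knockdown and between 1.35 and 3.48 FPKM in control libraries. Cox8b was at 2.14, 1.54 and 0.909 FPKM in knockdown and 10.9, 1.20 and 0.756 FPKM in control libraries, high in control library 1 alone, while Cox8a was at 82.9 to 101 FPKM in knockdown and 87.6 to 96.5 FPKM in control libraries.

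**Figure D3:**
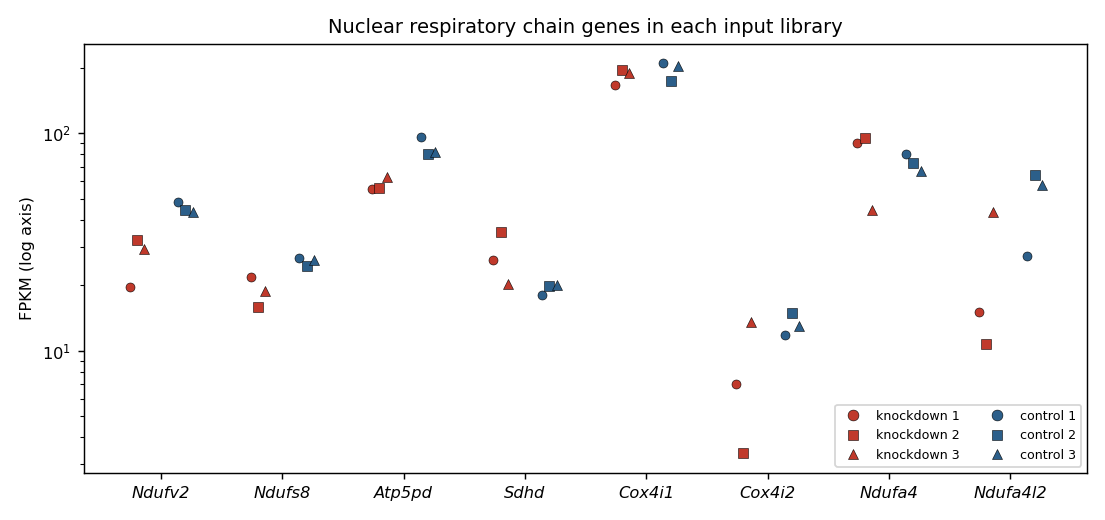
Level (FPKM, log axis) of 8 nuclear members in the 3 knockdown libraries (red, left) and the 3 control libraries (blue, right), 1 point per library. Ndufv2, Ndufs8 and Atp5pd show all red points below all blue ones, whereas in Cox4i2 and Ndufa4l2 knockdown library 3 (red triangle) lies among the controls.

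Complex V had 16 nuclear members, 12 with negative changes. Atp5pd, subunit d of the stalk that holds the catalytic head still, was at 55.2, 56.1 and 62.8 FPKM in knockdown and 96.0, 80.1 and 81.6 FPKM in control libraries, apart by a clear gap (log2 -0.55, SE 0.16, unadjusted p 0.0098, adjusted p = 0.302, limma). The catalytic subunit Atp5f1b, the second most abundant nuclear member, was at 206, 216 and 240 FPKM in knockdown and 213, 225 and 235 FPKM in control libraries. The groups interleaved completely, with a log2 change of -0.03 (SE 0.17). Atp5if1, the inhibitor that binds the synthase when the proton gradient collapses, was at 196, 328 and 161 FPKM in knockdown and 209, 184 and 174 FPKM in control libraries, where knockdown library 2 alone stood high. Atp5mc1, one of 3 genes for the ring of the rotor, had a log2 change of 0.23, against -0.22 for Atp5mc2 and -0.24 for Atp5mc3, all with overlapping groups. Atp5f1c, the central shaft, was apart and lower, at 11.4, 14.3 and 12.1 FPKM in knockdown and 17.02, 14.4 and 15.5 FPKM in control libraries.

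Genes outside the chain that serve it were counted from lists put together with earlier results of these data known, and 0 passed the threshold in any list. The counts stand beside 5.53% of all genes higher and 6.95% lower with an unadjusted p under 0.05. Of 31 measured assembly factors of complexes II to V, 1 was higher and 0 lower with an unadjusted p under 0.05. The higher one was Coa5, a complex IV assembly factor, at 12.6, 15.03 and 10.9 FPKM in knockdown and 7.41, 10.5 and 7.64 FPKM in control libraries. Uqcc2, a complex III assembly factor, had a log2 change of -0.48 with overlapping groups.

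Of 17 electron carriers and enzymes that feed the quinone pool, 1 was higher and 1 lower at that level. Gpd2, the mitochondrial glycerol-3-phosphate dehydrogenase, which hands electrons to the chain without complex I, was at 11.3, 12.3 and 8.02 FPKM in knockdown and 4.49, 4.93 and 5.09 FPKM in control libraries. The groups were far apart (log2 0.96, SE 0.21, unadjusted p 0.00219, adjusted p = 0.253, limma). Sqor, which feeds electrons from sulphide, was at 33.2, 28.4 and 51.9 FPKM in knockdown and 48.2, 66.3 and 69.0 FPKM in control libraries, with library 3 above the lowest control. Etfb, of the electron transfer flavoprotein, was at 17.5, 10.7 and 37.2 FPKM in knockdown and 32.3, 42.3 and 38.8 FPKM in control libraries. As in Cox4i2, knockdown libraries 1 and 2 lay below all controls and library 3 did not.

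Of 32 genes for transcription and processing of mitochondrial RNA, 4 were higher and 1 lower with an unadjusted p under 0.05, beside 5.53% and 6.95% of all genes. Of the 32, 7 were apart and higher and 2 apart and lower, beside 9.63% and 10.9% of all genes. Pde12, which trims poly(A) tails in mitochondria, was at 8.94, 10.7 and 12.4 FPKM in knockdown and 5.54, 5.87 and 5.62 FPKM in control libraries (log2 0.80, SE 0.18, adjusted p = 0.266, limma). Every knockdown library exceeded every control. Tefm, the elongation factor of mitochondrial transcription, was at 1.72, 1.38 and 2.60 FPKM in knockdown and 3.003, 4.00 and 3.21 FPKM in control libraries (log2 -0.62, adjusted p = 0.399, limma). Rexo2, an exonuclease of short RNAs, was at 44.3, 18.9 and 44.2 FPKM in knockdown and 48.2, 61.8 and 61.6 FPKM in control libraries, lowest in library 2.

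Of 10 nuclear regulators of the chain, 2 were higher and 0 lower with an unadjusted p under 0.05. Esrra, the nuclear receptor whose motif stands in the Sdhd promoter, was at 31.4, 33.7 and 28.0 FPKM in knockdown and 23.6, 21.5 and 23.4 FPKM in control libraries (log2 0.42, SE 0.15, adjusted p = 0.355, limma). Yy1 was at 41.0, 45.2 and 36.6 FPKM in knockdown and 34.1, 28.5 and 26.6 FPKM in control libraries (log2 0.45, SE 0.17, adjusted p = 0.37, limma). In both the groups were apart by a small gap, and neither passed the threshold.

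Of 17 genes of the citric acid cycle and pyruvate dehydrogenase, 0 were higher and 2 lower at that level. Of the 17, 2 were apart and higher and 5 (29.4%) apart and lower, beside 9.63% and 10.9% of all genes. Suclg1, the alpha subunit of succinyl-CoA ligase, was at 22.1, 24.8 and 23.4 FPKM in knockdown and 37.2, 31.5 and 31.1 FPKM in control libraries (log2 -0.48, adjusted p = 0.322, limma). Citrate synthase, Cs, was at 94.2, 115 and 87.4 FPKM in knockdown and 87.2, 74.8 and 77.2 FPKM in control libraries, apart in the other direction. Of 75 mitochondrial ribosomal proteins, 1 was higher and 5 lower with an unadjusted p under 0.05, with a median log2 of -0.01. Mrpl13 was at 21.0, 27.3 and 26.4 FPKM in knockdown and 36.8, 38.6 and 37.5 FPKM in control libraries (log2 -0.58, adjusted p = 0.292, limma), and Mrpl3, the higher one, had a log2 change of 0.41.

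The ac4C peak lists covered nearly every mitochondrial mRNA in both groups. Leaving out rows at the single p-value repeated through most of the lists of control libraries 1 and 2, peaks were listed on 13, 10 and 13 of the 13 genes in knockdown and on 12, 12 and 13 in control libraries. In all 6 lists 10 of the 13 had a peak, against 2.22% of 11725 protein-coding genes with at least 1 FPKM. High expression stood beside this: among the 25 nuclear protein-coding genes at 1000 FPKM or more, 8 (32.0%) had a peak in all 6 lists. The lists hold no read depth or enrichment, and the part of expression level in being listed was not tested. The exceptions were Mt-atp8 and Mt-nd4l, listed in 4 of 6, and Mt-co3, in 5; knockdown library 2 lacked all 3 of these.

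Peaks covered 51.0%, 38.04% and 87.9% of the summed length of the 13 mRNAs in knockdown and 53.6%, 37.1% and 58.7% in control libraries. The groups overlapped, with knockdown library 3 highest. The input library of that number also had the highest mitochondrial level. Mt-co1, the most abundant message, was among the least covered at 15.5%, 15.5% and 40.5% in knockdown and 17.3%, 17.3% and 19.3% in control libraries, and Mt-nd6 was covered whole in 5 of 6. Peaks reached the same last base in 6 of 6 lists for Mt-co1 (position 6867 of the mitochondrial contig), Mt-nd1 (3694), Mt-nd2 (4942), Mt-nd3 (9798) and Mt-nd5 (13565), on the coordinates of the deposited lists. In Mt-nd1, Mt-nd2, Mt-nd3 and Mt-nd5, 1 list held a single peak as long as the gene, so this base is the end of the gene model, and no listed peak of the 13 genes was longer than its gene. A last base shared there shows only that the peaks ran to the end of the model. No list held a peak as long as Mt-co1, and position 6867 may likewise be the end of its gene model. For Mt-co1 the peak at that edge began at 6629, 6629 and 6540 in knockdown and at 6600, 6600 and 6570 in control libraries. The groups overlapped in where this peak began.

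**Figure D4:**
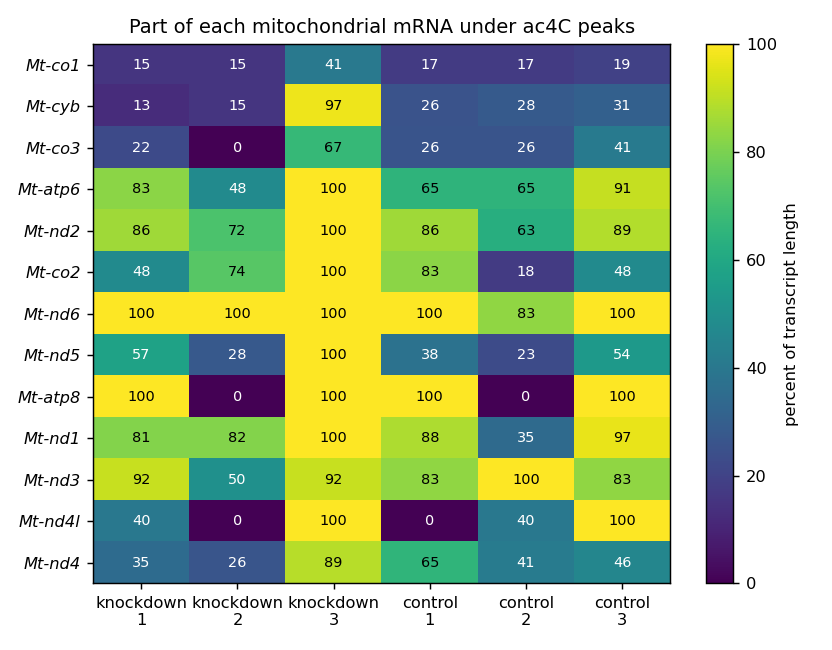
Percent of the length of each mitochondrial mRNA under listed ac4C peaks, by library, knockdown on the left and control on the right, genes ordered by mean input level. Knockdown library 3 has the fullest cover, and the 2 lists with the least cover in total are knockdown library 2 (38.04%) and control library 2 (37.1%).

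The share of nuclear members listed with ac4C peaks lay below that of protein-coding genes in 5 of the 6 lists and above it in knockdown library 3. In knockdown libraries 13, 10 and 32 of 91 were listed (14.3%, 10.99% and 35.2%), beside 20.4%, 17.0% and 17.7% of protein-coding genes. In control libraries 17, 11 and 19 were listed (18.7%, 12.1% and 20.9%), beside 20.5%, 13.4% and 22.6%. The groups overlapped, with a difference in means of 2.67 genes (exact permutation test, two-sided, p = 0.9). At least 1 list held a peak for 57.1% of the nuclear members and for 52.7% of protein-coding genes. Among protein-coding genes at 10 to 100 FPKM, the band that holds the median nuclear member (36.4 FPKM), it was 61.3%. In all 3 knockdown lists 3 of 91 had a peak, against 5.13% of protein-coding genes, and in all 3 control lists 2 of 91, against 4.62%. The 3 genes in all knockdown lists were of complex V: Atp5f1c, Atp5me and Atp5md. Each was listed in control cells too, Atp5f1c and Atp5md in control lists 1 and 3 and Atp5me in control list 3. So 0 nuclear members had a peak in all knockdown lists and in no control list. Atp5md rested on 4 to 32 input fragments per library.

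Peaks of Atp5me ended at 2326436 on chromosome 14 in all 3 knockdown lists and in control list 3, which may likewise be the end of a gene model. The 2 genes listed in all control lists were both Uqcrb IDs. The ID on chromosome 7 was also listed in knockdown libraries 1 and 3. The ID on chromosome 1 had peaks of 120, 179 and 149 nt ending at 94718876 in the control libraries and none in the knockdown lists, 1 of 91 beside 0.546% of protein-coding genes. Its input level was 17.1 ± 3.87 FPKM in knockdown and 23.7 ± 3.58 FPKM in control (SD, n = 3 each), lower in the group with no listed peak. Ndufv2 had an ac4C peak in knockdown libraries 2 and 3 and control libraries 1 and 3, and 0 nuclear members had a peak in all 6 lists.

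NAT10 RIP peaks, from untreated cells, were listed most often on 1 mitochondrial message. Mt-nd5 was the only member of the 104 with a peak in all 3 libraries, where 3.08% of protein-coding genes and 4 of the 25 nuclear ones at 1000 FPKM or more (16.0%) had one. Any RIP peak was listed for 3 of the 13 mitochondrial messages (23.1%) and for 24.0% of those 25 genes. In library 1 the peak ran over MT 11986 to 13160 with a log2 enrichment of 2.77 in the authors' deposited table, ranked 3 of 2268 peaks; in library 2 over 11986 to 13135 with 2.31, ranked 16 of 1993; in library 3 it was split into 12111 to 12385 with 1.20 and 12711 to 13110 with 1.34. All 3 lie inside the coding gene. A total RNA library without immunoprecipitation is labelled with the same assay, and the labels' protocol names an IgG control; which of them stands behind the enrichment was not stated in the sources used here, and neither was analysed here. Counted from the 5′ end of the gene of 1830 nt, they span 251 to 1425, 251 to 1400, and 376 to 650 with 976 to 1375. The ac4C peak common to all 6 lists lies at the 3′ end, beginning at 1260, 1320 and, in knockdown library 3, at the first base of the gene, and at 1410, 1410 and 1110 in control libraries. Between nt 481 and 1020, inside the RIP span, no ac4C list had a peak except that of knockdown library 3. Elsewhere the marks overlapped. The 3′ ac4C peak began before nt 1425, the end of the longest RIP peak, in all 6 lists. Toward the 5′ side, ac4C peaks of knockdown library 1 (1 to 481) and control library 3 (151 to 421) reached into the RIP span. Control library 1 had a peak inside it at 1020 to 1170.

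Mt-nd1 had peaks in RIP libraries 1 and 2, over 2765 to 2914 and 2765 to 2889, with log2 enrichments of 1.01 and 0.93, and Mt-nd6 in library 1 alone. The other 10 mitochondrial messages had none. Mt-co1 and Mt-cyb exceeded Mt-nd5 in all 6 input libraries, which came from infected cells. The part of expression level in having a RIP peak was not tested. Among nuclear members 0 had a RIP peak in all 3 lists and 1 of 91 had any. Any RIP peak was listed for 6.81% of protein-coding genes and for 10.96% of those at 10 to 100 FPKM. The 1 nuclear member was Atp5f1b, with a peak of 50 nt at 2505331 to 2505380 on chromosome 7 in libraries 2 and 3, at log2 enrichments of 0.89 and 0.99. Ndufv2 had no RIP peak.

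**Figure D5:**
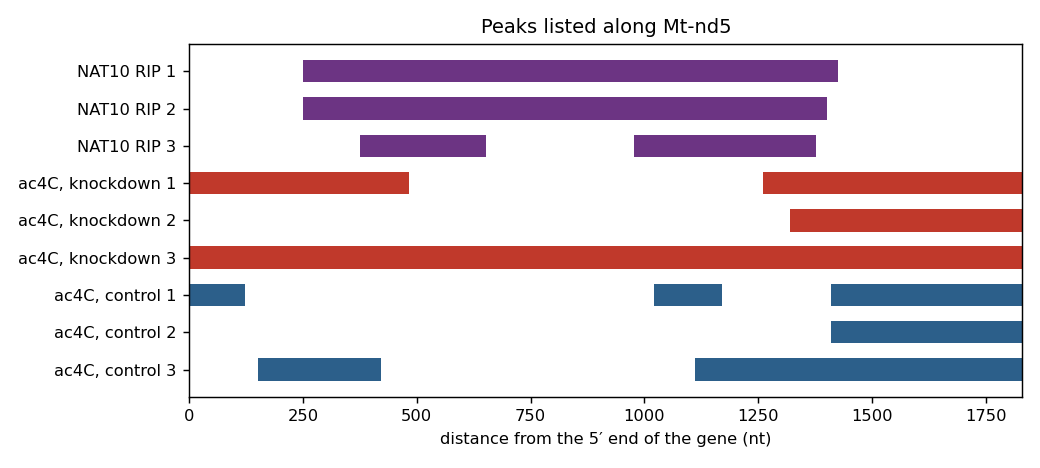
Peaks listed along Mt-nd5, in nt from the 5′ end of the gene, for NAT10 RIP libraries (purple), ac4C knockdown libraries (red) and ac4C control libraries (blue). RIP peaks lie between 251 and 1425, and all 6 ac4C lists reach 1830, the end of the gene model.

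Of 88 nuclear member symbols, 76 were matched to a RefSeq promoter. The motifs searched on both strands were NRF1 (TGCGCANGC), YY1 (AAGATGG), ETS factors such as GABPA (CCGGAAG), SP1 and KLF factors (GGGCGG), ESRRA (TCAAGGTCA) and the hypoxia-inducible factors (ACGTG), none of which contains another. YY1 letters were present in 25.0% of member promoters against 8.65% of 8788 promoters of expressed genes, NRF1 letters in 19.7% against 8.94%, and ETS letters in 27.6% against 18.6%. SP1 letters were present in 39.5% of member promoters against 65.0%, and the hypoxia letters in 26.3% against 26.2%. ESRRA letters occurred in 2 of 76 promoters, Sdhd and Atp5mc3 (2.63% against 0.228%). These are descriptions of letters in a window, with no test, and do not show binding.

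Most YY1 matches lay near the start of the gene. The 19 began between 182 bases before and 37 bases after it, 16 of them (84.2%) within 50 bases, against 57.2% of 794 matches in promoters of all expressed genes. Of those 16, 13 (81.2%) lay on the strand of the gene, as in the printed Uqcrc1, Ndufa6 and Ndufa4l2 promoters, against 78.9% over all promoters. The letters contain ATG, so some of them may cover a start codon. Of the 3 printed promoters with YY1 letters, that of Uqcrc1 belongs to a member with all knockdown values above all controls, and those of Ndufa6 and Ndufa4l2 to members with negative, overlapping changes (log2 -0.31 and -1.23).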

How the data were processed

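Expression was measured in 3 knockdown and 3 control input libraries, ac4C in 3 and 3 immunoprecipitated libraries and NAT10-bound RNA in 3. The authors deposited FPKM per gene for the input libraries. For ac4C they deposited 1 peak list per library whose peaks each carry a p-value; raw or adjusted was not stated. For NAT10 RIP they deposited 1 list per library whose peaks carry a log2 enrichment and an adjusted p-value. Per the submitters' processing notes, HISAT2 2.1.0 and featureCounts 1.6.3 were among the tools, with HOMER 4.10.4, cutadapt 2.5 and DESeq2, on builds rn6, GRCm38 and GRCh38, without a step for any. The peak callers were not given, and the depth of the immunoprecipitated libraries is unknown. Coordinates follow the deposited lists, counted from 1. There are 0 columns of other samples.

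The FPKM values gave whole fragments for 21401 of 21401 genes above 0 (relative tolerance 2e-08), and for 0 of 500 genes with altered decimals. Depth was 6417941 to 12065991 fragments per library. The authors' scaling between libraries was kept.

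Genes with a mean of at least 1 FPKM were fitted in R 4.3.3 by limma 3.58.1, with a trend in the variance and two-sided tests, after log2(FPKM + 1), with Benjamini-Hochberg adjustment over 13450 genes at 0.05; changes on this scale understate those of low genes. The fit was tested on simulated data. Summed levels and peak counts were compared by exact permutation over samples. In control ac4C lists 1 and 2, 26881 and 27673 rows share a single p-value (0.045 and 0.046) and were left out. The genes picked by rule are all mitochondrial members, the 2 most abundant of each nuclear complex and the 5 nuclear ones with the smallest p in each direction. The rule adds the isoform pairs, members with peaks in all lists of a group, and Nat10. From each of the other lists it takes the 2 with the smallest p in each direction. Not all of these last picks are given. AABR07053741.1 (log2 0.80), Dld (-0.47) and Mrpl23 (-0.56) are among those left out. Other genes given were chosen after their values were seen. Members, lists and this rule were chosen with earlier results of these data known. The hypoxia motif was added after seeing the data. Alternatives were other pseudocounts, filters, scalings, weights and tests, and leaving out each library. Values of 1 member are not reported here or drawn.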

Additional observations from a re-analysis of the deposited data

How the results depend on the processing

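The counts of 0 members past the threshold held in every alternative for the mitochondrial genes, and for the nuclear genes in all but library quality weights, which called 2 nuclear members and 335 genes in all. Leaving out each library gave 0 to 1 genes called over the whole table. The summed mitochondrial level had no stable sign: 0.0104 with equal library sums, 0.0419 with equal sums over nuclear genes, 0.34 without knockdown library 2 and control library 1, and -0.32 to 0.26 (log2) on leaving out each library. The summed nuclear level ranged between -0.14 and 0.0102 on leaving out each library, positive only without knockdown library 3. With the median log2 of members in place of the sum it was -0.21, and the mitochondrial difference -0.11. The difference in nuclear genes with ac4C peaks was -3.67 with all listed rows and -4.17 to 6.83 on leaving out each library. With a NAT10 RIP peak in at least 2 lists, 1 nuclear member was counted, and 0 to 1 on leaving out each library. Of 1080 values of 72 named genes under alternatives, 84 changed sign, none past the threshold before or after. With weights Ndufv2, Ecsit, Gpd2, Mrpl13 and Nat10 passed. Replicate numbers did not pair the libraries (correlations of deviations of -0.21, -0.28 and 0.18). The fit with the replicate number as a block called 0 genes of all tested, 0 mitochondrial and 0 nuclear members, with summed differences of -0.02 and -0.07 and a peak difference of 2.67. With 3 libraries a group and knockdown libraries far apart, changes smaller than this spread were not detectable.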
